A study of Mus musculus with 18 samples.

Results

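The 46 genes described here encode proteins that carry a cell through mitosis, from the cyclins and kinases that start it to the ring that cuts the cell apart. They are taken by symbol and role, and each matched exactly 1 of the 50600 rows of the gene count table. The question was how these genes were expressed in regulatory T cells (Tregs) that lack CD25, the alpha chain of the interleukin-2 receptor encoded by Il2ra, and in their WT controls. RNA-seq counts, given here as CPM, the count of a gene scaled to the size of its library, were available for Foxp3+ Tregs sorted from 18 mice, 1 library per mouse, all on the C57BL/6 strain.

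Thymic WT Tregs came from 5 Foxp3/RFP reporter mice at 3 to 4 weeks of age. Thymic CD25 KO Tregs came from 5 age-matched mice with floxed CD25 alleles and the Foxp3-YFP/Cre allele, in which exon 4 of Il2ra is excised in cells that express Foxp3. These CD25 KO mice were “cured”, meaning that WT splenocytes had been injected into them as newborns so that autoimmunity did not develop. In the spleen, CD25 KO Tregs were taken from 4 mice carrying CD25 flox/Foxp3eGFP-Cre-ERT2/R26Y, in which tamoxifen switches on the Cre made from the Foxp3 locus, and WT Tregs from 4 CD25 WT reporter controls. Tamoxifen was given at 7 to 10 weeks of age and spleens were taken 10 to 14 days later. Tissue, mouse model, age and the date in the column headers differed together between thymic and splenic samples, and in the thymus the reporter allele and the cell transfer differed with the genotype. These cannot be told apart.

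Mitosis genes are transcribed in a wave late in the cell cycle, so their RNA is abundant in dividing cells and scarce in resting ones. Cyclin-dependent kinase 1 with cyclin B starts mitosis, the kinetochores attach chromosomes to the spindle, and the spindle checkpoint holds the cell until every kinetochore is attached. The anaphase-promoting complex then releases separase, which opens cohesin so that sister chromatids part. Tregs divide in the thymus as they mature and in peripheral tissues as they respond to antigen and interleukin-2. Each library was made from a sorted population, so a larger share of dividing cells and more RNA per dividing cell cannot be told apart.

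Late cell-cycle promoters are known for the cell-cycle genes homology region (CHR), an element bound by the MuvB complex, and for CCAAT boxes bound by NF-Y. RefSeq promoter windows on GRCm38.p6, from 250 bases before to 50 bases after the start of transcription, were at hand for 37 of the 46 members. They were searched on both strands for the CHR letters TTTGAA or TTCGAA, for CCAAT, and for the E2F letters TTCCCGC or TTCGCGC and the related forms TTGCCGC or TTGGCGC. A CHR match was found in 29 of the 37 windows (78.4%) and in 19.4% of all 27025 windows of the table. CCAAT was found in 29 windows (78.4%) and in 37.9% of all windows, and both together in 26 (70.3%) and in 7.7%. E2F letters were found in 5 (13.5%) and in 9.69%. Of 31 windows of genes for DNA replication, which are switched on earlier in the cycle, 6 (19.4%) held a CHR match, 19 (61.3%) CCAAT and 18 (58.1%) an E2F match. Most of these promoters thus hold CHR letters, which the choice of genes did not use, although a match is a run of letters and not a measured binding site.

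The promoters of 5 members follow, because they hold both elements before the start and, among such members, had the highest mean log2 CPM over all samples. Capitals mark CHR and CCAAT letters on either strand, and the last base is the one before the start of transcription.
Mki67 (chr7:135716380-135716629, minus strand): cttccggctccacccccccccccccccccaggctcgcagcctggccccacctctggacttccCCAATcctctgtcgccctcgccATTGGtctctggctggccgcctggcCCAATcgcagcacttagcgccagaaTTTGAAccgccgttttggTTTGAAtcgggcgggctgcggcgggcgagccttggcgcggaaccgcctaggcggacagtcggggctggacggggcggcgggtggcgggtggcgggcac
Top2a (chr11:99024190-99024439, minus strand): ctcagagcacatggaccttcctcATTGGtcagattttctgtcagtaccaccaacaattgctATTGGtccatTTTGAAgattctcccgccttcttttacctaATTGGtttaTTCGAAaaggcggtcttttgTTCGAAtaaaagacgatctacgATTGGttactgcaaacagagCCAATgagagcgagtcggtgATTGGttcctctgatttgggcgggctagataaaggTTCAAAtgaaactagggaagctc
Kif22 (chr7:127042421-127042670, minus strand): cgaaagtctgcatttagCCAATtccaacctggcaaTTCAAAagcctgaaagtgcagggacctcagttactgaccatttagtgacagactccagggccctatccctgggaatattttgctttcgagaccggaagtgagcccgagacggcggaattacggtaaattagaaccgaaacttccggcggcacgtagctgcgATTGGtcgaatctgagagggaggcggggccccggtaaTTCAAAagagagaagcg
Bub1b (chr2:118597961-118598210, plus strand): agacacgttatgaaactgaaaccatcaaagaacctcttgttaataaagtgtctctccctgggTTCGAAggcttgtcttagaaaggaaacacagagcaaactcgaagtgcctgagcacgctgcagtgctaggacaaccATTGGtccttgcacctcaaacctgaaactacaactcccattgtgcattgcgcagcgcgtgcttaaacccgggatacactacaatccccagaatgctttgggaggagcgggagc
Ect2 (chr3:27153879-27154128, minus strand): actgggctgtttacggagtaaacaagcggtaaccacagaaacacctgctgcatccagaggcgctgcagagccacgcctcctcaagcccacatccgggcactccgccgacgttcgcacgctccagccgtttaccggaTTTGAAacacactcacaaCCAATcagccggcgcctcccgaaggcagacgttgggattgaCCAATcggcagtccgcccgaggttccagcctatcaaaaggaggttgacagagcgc

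Kif22, Ect2, Mki67 and Top2a lie on the minus strand and Bub1b on the plus strand, and all are printed in the direction of transcription. Top2a held 4 CHR and 6 CCAAT matches in these 250 bases, Mki67 2 and 3, Kif22 2 and 2, Ect2 1 and 2, and Bub1b 1 and 1. Over the 37 windows, 29 of 40 CHR matches lay within 60 bases of the start, and 34 of 69 CCAAT matches. The median CHR match began 1.5 bases and the median CCAAT match 65 bases before the start.

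**Figure D1:**
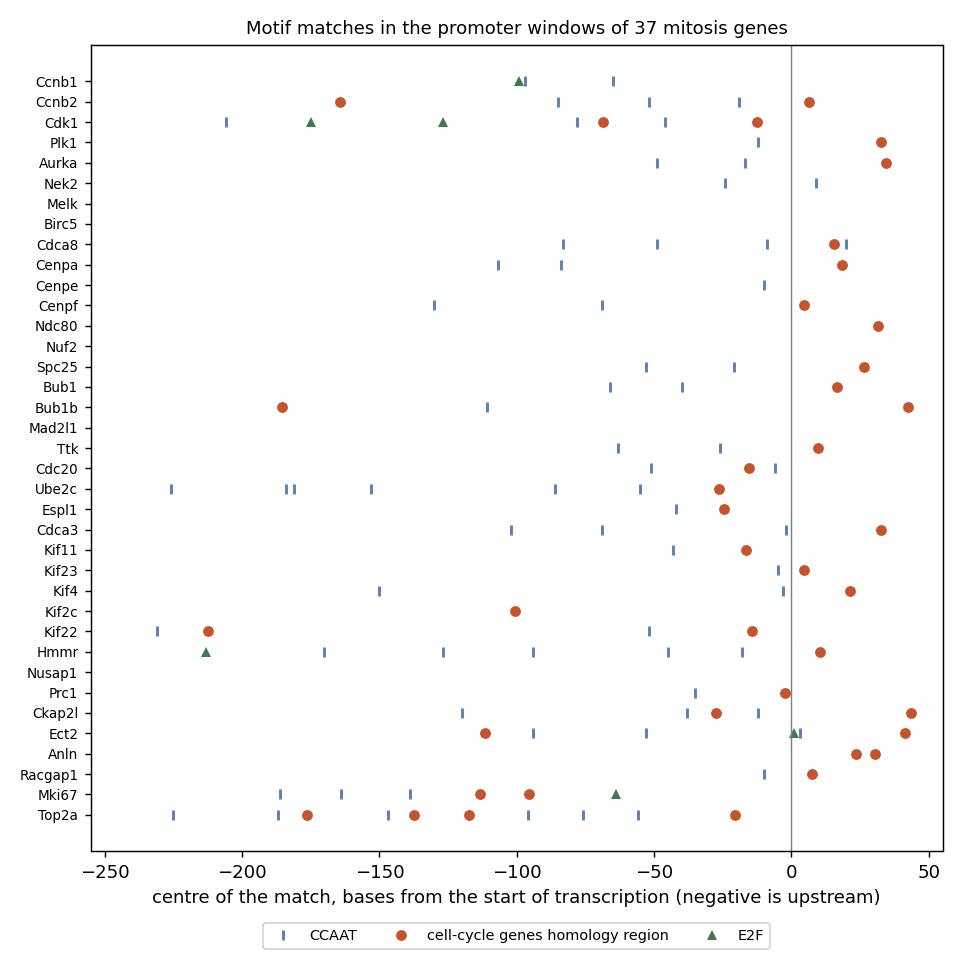
Matches to CHR (circles), CCAAT (bars) and E2F (triangles) letters in the promoter windows of 37 mitosis genes, 1 row per gene; the horizontal axis is the distance in bases from the start of transcription. CHR matches gather at the start and CCAAT matches before it, and 8 genes have no CHR match in the window.

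Before the comparisons, the libraries were checked. Total counts were 17239774 to 23993674 in thymic and 25258341 to 32639570 in splenic libraries, and 3 counts, the smallest number taken as detected, came to no more than 0.162 CPM (thymus) or 0.127 CPM (spleen). Il2ra was at 526 to 683 CPM in thymic WT and 481 to 534 CPM in splenic WT mice. It was at 166 to 208 CPM in splenic CD25 KO mice. Among thymic CD25 KO animals, Il2ra was at 105, 95.2 and 97.3 CPM in mice 1, 3 and 5 but at 288 and 236 CPM in mice 2 and 4. Counts cover the whole gene, so RNA that lacks exon 4 is still counted. Mice 2 and 4 stand apart from the other 3 in what follows, and the thymic count of calls, its median, the mean over members and the tissue difference are given with and without them. Medians by role, the order of group means and the thymic calls of other lists are given with all mice.

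Kif11, the kinesin that pushes spindle poles apart (ENSMUSG00000012443.3, chr19:37376403-37421859), and Nek2, a centrosome kinase (ENSMUSG00000026622.15, chr1:191821444-191833050), are listed at 0 in all 8 splenic libraries. The neighbouring genes Ide and March5 beside Kif11 had 2 and 0 splenic counts against 7262 and 2569 thymic counts, and Traf5 and Slc30a1 beside Nek2 had 0 and 1 against 1640 and 207. In all, 50 protein-coding genes with at least 500 thymic counts are listed at 0 in every splenic library, 32 of them next to another such gene, and no gene shows the opposite. The splenic zeros of Kif11 and Nek2 are therefore not read as levels, and splenic values and comparisons between tissues cover the other 44 members.

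Mitosis genes were higher in splenic CD25 KO than in splenic WT Tregs, spread widely among thymic CD25 KO mice, and were highest in thymic WT Tregs. In the spleen, 32 of 44 members rose and none fell, where 5.9% of all genes tested rose and 3.55% fell, with Pbk, Hmmr and Ccnb2 rising 2.48-fold, 2.41-fold and 2.30-fold. In the thymus, none of 46 members passed the test, although 45 of 46 fold changes were below 0, where 50.3% of all genes were. Among WT mice, 43 of 44 members were lower in splenic than in thymic Tregs, where 19.5% of all genes were lower and 21% higher. A gene is said to rise or fall where edgeR's quasi-likelihood test gave a Benjamini-Hochberg adjusted p below 0.01 over all genes tested.

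The mean log2 CPM over the 44 members summarises each mouse on a log2 scale. It was 4.42, 4.70, 5.38, 4.19 and 4.59 in thymic WT mice 1 to 5, which is 4.65 ± 0.447 (SD, n = 5). It was 3.19, 5.04, 3.24, 4.87 and 2.84 in thymic CD25 KO mice 1 to 5, or 3.83 ± 1.03 (SD, n = 5). CD25 KO mice 2 and 4 lay inside the WT range and mice 1, 3 and 5 below it. In the spleen it was 2.30, 2.57, 2.42 and 2.55 in WT mice 1 to 4, or 2.46 ± 0.128 (SD, n = 4), and 2.95, 3.09, 3.32 and 3.35 in CD25 KO mice 1 to 4, or 3.18 ± 0.194 (SD, n = 4). The splenic groups did not overlap, and their means differed by 0.72. The thymic means differed by -0.82, which is less than the SD of the thymic CD25 KO mice, and by -1.57 without CD25 KO mice 2 and 4, which were left out after the data had been seen.

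**Figure D2:**
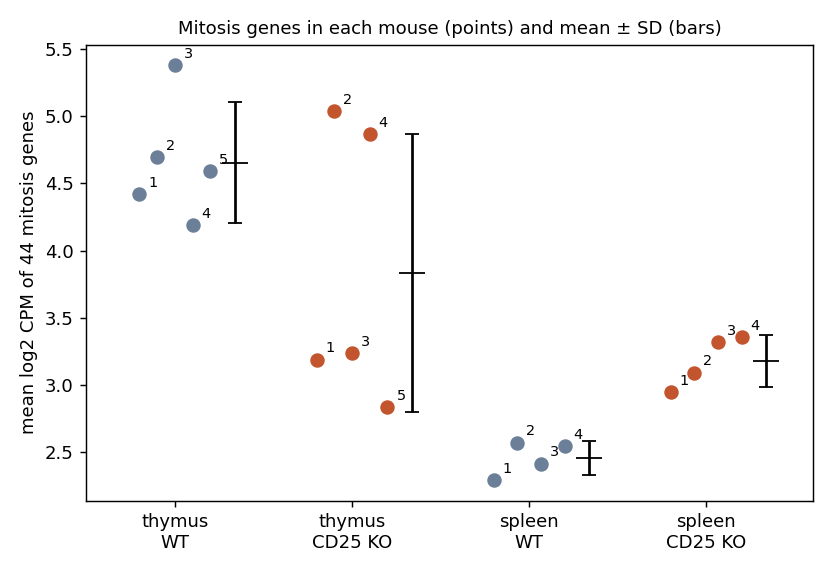
Mean log2 CPM of 44 mitosis genes (vertical axis) in each of 18 mice, numbered within the 4 groups, with the group mean and SD as black bars. Thymic CD25 KO mice 2 and 4 sit at 5.04 and 4.87 among the WT mice and mice 1, 3 and 5 at 2.84 to 3.24, and all 4 splenic CD25 KO mice sit above all 4 splenic WT mice.

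Within each thymic group, the same few mice were at the extremes for nearly all members. In thymic WT mice, mouse 3 was highest for 46 of 46 members and mouse 4 lowest for 41. In thymic CD25 KO mice, mouse 2 was highest for 37 and mouse 4 for the other 9. Mice 1, 3 and 5 lay below every WT mouse for 45, 44 and 46 members, where 29.9%, 33.4% and 34.8% of all 16986 genes tested did so. CD25 KO mice 2 and 4 lay below every WT mouse for 0 members each, against 25% and 25.5% of all genes. They lay above every WT mouse for 6 members and 1 member, against 26.5% and 22.1% of all genes. The SD of log2 CPM between mice had a median over members of 0.48 (thymic WT) and 1.15 (thymic CD25 KO), against 0.16 and 0.20 over all genes tested. In the spleen, these medians were 0.17 in WT and 0.23 in CD25 KO mice, against 0.13 and 0.15.

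**Figure D3:**
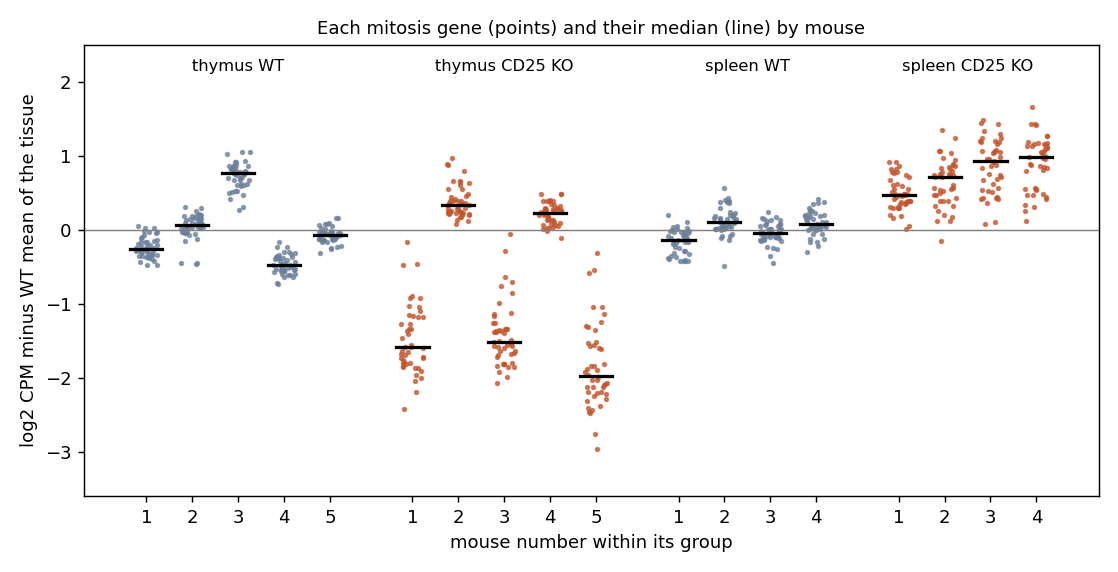
Log2 CPM of each mitosis gene minus its mean in WT mice of the same tissue (points; 46 genes in the thymus and 44 in the spleen), with the median over genes as a line, for each mouse. The medians of thymic CD25 KO mice 1, 3 and 5 were -1.59, -1.51 and -1.98, those of mice 2 and 4 were 0.33 and 0.23, and those of the splenic CD25 KO mice 0.47 to 0.98.

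Levels of Il2ra divided the thymic CD25 KO mice in the same way as the mitosis genes did, since mice 2 and 4 had both the most Il2ra and the most mitosis RNA. Thymic WT mice did not follow such an order, because mouse 3 had the lowest Il2ra of the 5 (526 CPM) and the highest mitosis level. In the spleen, CD25 KO mice 3 and 4 had the least Il2ra (166 and 181 CPM) and the highest mitosis levels (3.32 and 3.35). With so few mice per group no correlation was computed, and the part of residual Il2ra in the mitosis levels was not tested.

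**Figure D4:**
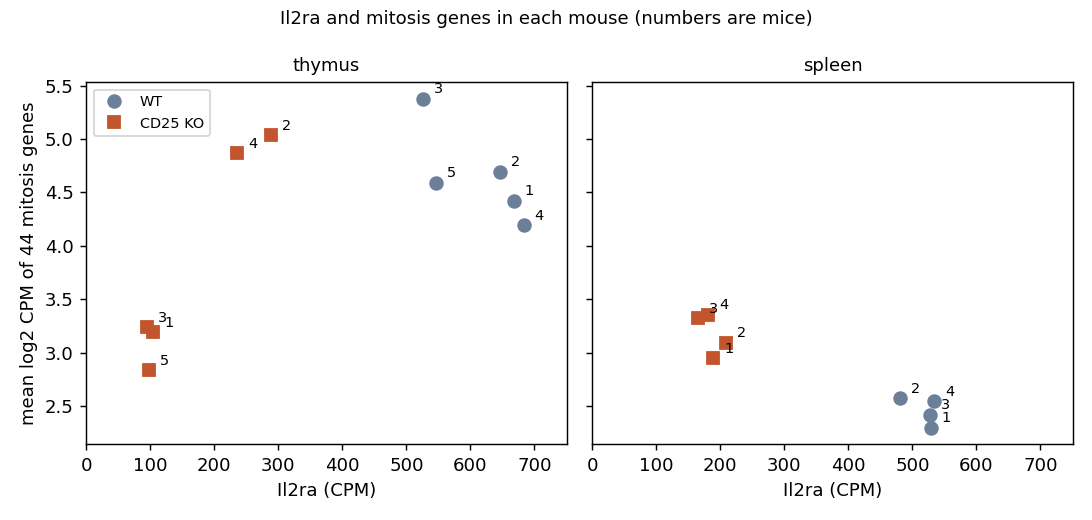
Il2ra in CPM (horizontal axis) and mean log2 CPM of 44 mitosis genes (vertical axis) in each mouse, thymus on the left and spleen on the right, WT as circles and CD25 KO as squares. Among thymic CD25 KO mice, the 2 with 236 and 288 CPM of Il2ra have mitosis levels of 4.87 and 5.04 and the 3 with 95.2 to 105 CPM have 2.84 to 3.24.

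In the comparison of thymic CD25 KO with WT Tregs, 0 of 46 members were called by edgeR, where 3.17% of all genes tested were called higher and 2.99% lower. At an adjusted p below 0.05 and at an unadjusted p below 0.05 the count was also 0 (19.4% of all genes higher and 18.5% lower at that unadjusted p), and DESeq2 called 0. The median log2 fold change over the members was -0.61, against 0.00 over all genes, and the lowest adjusted p was 0.164, for Kif22. That median was -0.97 without CD25 KO mouse 2, -0.38 without WT mouse 3 and -0.39 without CD25 KO mouse 5. Spc24 and Tpx2 had the most negative fold changes, at -0.82 ± 0.47 and -0.82 ± 0.47 (SE), and Cenpa and Ndc80 the values nearest to or above 0, at 0.02 ± 0.12 and -0.05 ± 0.25. The groups overlapped for every member, where 7.49% of all genes were higher and 8.3% lower without overlap. Without CD25 KO mice 2 and 4, 2008 genes were called in either direction, against 1047 with all mice. In that fit 42 of 46 members were called lower, with a median of -1.78, and Ccnb1, Cenpa, Mad2l1 and Ndc80 were not called. That count was added after the data had been seen, and leaving out the mice with the most Il2ra also leaves out the CD25 KO mice with the highest level of every member, so it is no independent test.

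In the comparison of splenic CD25 KO with WT Tregs, 32 of 44 members were called higher by edgeR and 0 lower, where 5.9% of all 17463 genes tested were called higher and 3.55% lower. The median log2 fold change was 0.78 over the members and -0.01 over all genes, and 43 of 44 values were above 0, against 48.8% of all genes. For 38 members every CD25 KO mouse was above every WT mouse, which held for 11.8% of all genes. The 12 members not called were Aurka, Melk, Foxm1, Ndc80, Spc25, Bub1, Ube2c, Kif20a, Kif2c, Kif22, Prc1 and Anln. A fit of all 18 samples, in which the spread of the thymic mice is shared, called 0 members in the spleen. It called 795 of all genes in either direction, against 1651 in the splenic fit, and the median over members was nearly the same, at 0.78. A minimum fold of 1.2 left 16 members and 578 of all genes called.

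**Figure D5:**
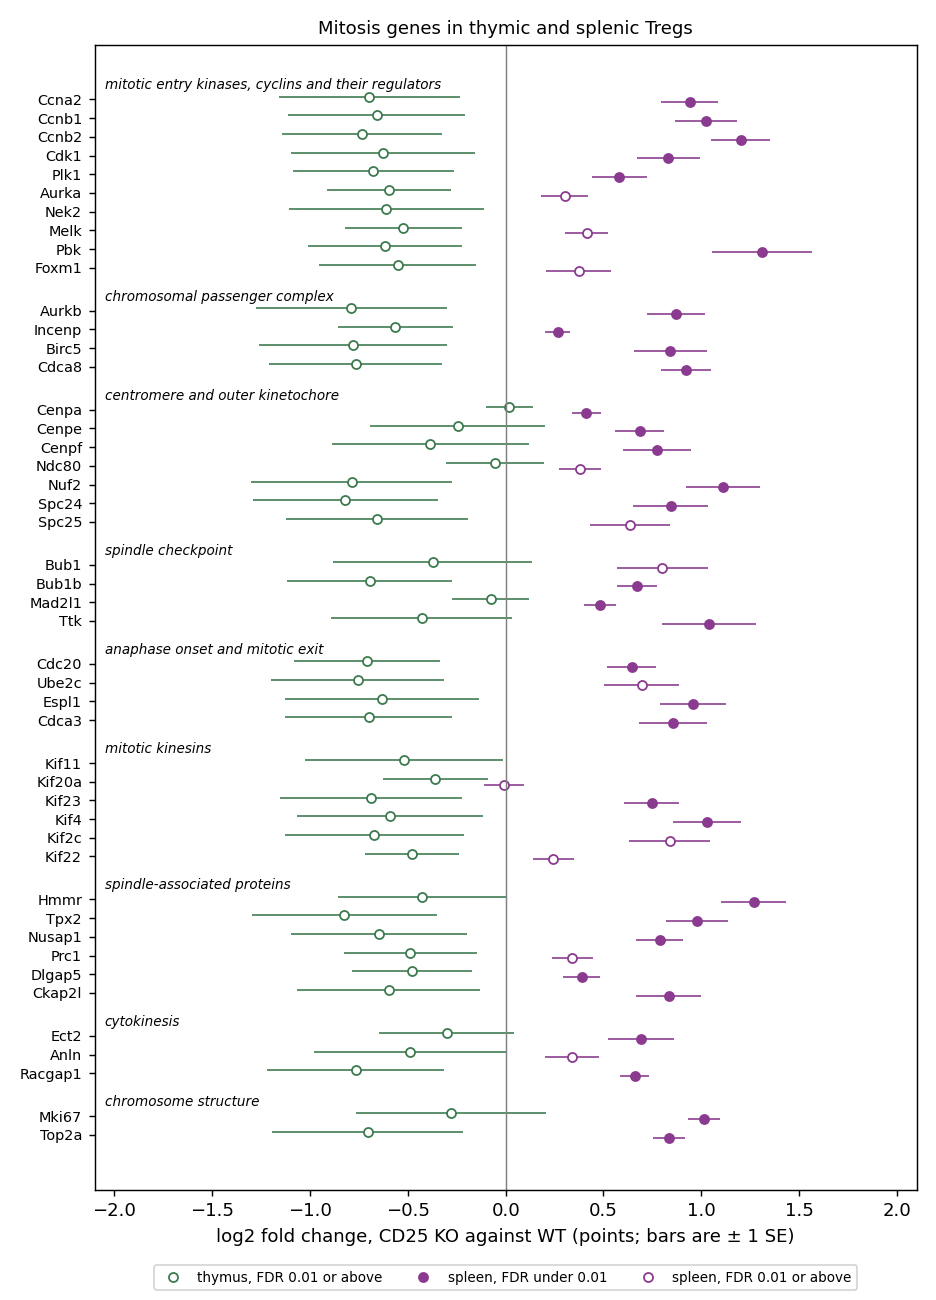
Log2 fold change of each mitosis gene in CD25 KO against WT Tregs (points, with 1 SE as bars), in the thymus and in the spleen, grouped by role; filled points have an edgeR adjusted p below 0.01. All thymic points are open and 45 of 46 lie left of 0, and 32 of 44 splenic points are filled and lie right of 0; Kif11 and Nek2 have no splenic value.

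For every gene whose values by mouse follow, thymic CD25 KO mice 1, 3 and 5 lay below all 5 WT mice, except mice 1 and 3 for Cenpa and mouse 3 for Mad2l1, and no thymic comparison was called. Among the 10 cyclins and kinases of mitotic entry and their regulators, 6 of 9 measured members rose in the spleen, with a median log2 fold change of 0.83, and the thymic median was -0.62. Ccna2 was at 32.7, 40.7, 73.2, 26.1 and 38.96 CPM in thymic WT mice 1 to 5 and at 12.3, 55.4, 12.7, 40.4 and 9.07 CPM in thymic CD25 KO mice 1 to 5. In the spleen, Ccna2 was at 5.95, 6.92, 5.52 and 6.06 CPM in WT mice 1 to 4 and at 8.74, 10.6, 14.1 and 13.97 CPM in CD25 KO mice 1 to 4. Ccna2 encodes cyclin A2, which acts from DNA replication into early mitosis, and its splenic groups did not overlap (log2 fold change 0.94 ± 0.14 (SE), edgeR adjusted p = 0.000311). Of the exonic length of Ccna2, 12.5% overlaps Exosc9 on the other strand. Foxm1 was at 27.1, 31.6, 48.95, 23.1 and 35.9 CPM in thymic WT mice 1 to 5 and at 9.67, 41.5, 12.6, 38.6 and 10.5 CPM in thymic CD25 KO mice 1 to 5. In the spleen, Foxm1 was at 5.38, 9.48, 6.11 and 8.67 CPM in WT mice 1 to 4 and at 9.38, 8.13, 11.7 and 9.68 CPM in CD25 KO mice 1 to 4. Splenic Foxm1, the transcription factor that drives late cell-cycle genes, overlapped between genotypes and was not called (log2 fold change 0.37 ± 0.16 (SE), edgeR adjusted p = 0.141).

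Ccnb2 was at 17.1, 22.1, 33.99, 13.2 and 16.8 CPM in thymic WT mice 1 to 5 and at 6.48, 23.02, 7.55, 19.9 and 4.59 CPM in thymic CD25 KO mice 1 to 5. In the spleen, Ccnb2 was at 3.59, 4.54, 4.71 and 5.16 CPM in WT mice 1 to 4 and at 8.51, 8.81, 12.2 and 12.2 CPM in CD25 KO mice 1 to 4. Ccnb2, a B-type cyclin that activates Cdk1, was higher in every splenic CD25 KO than in every WT mouse (log2 fold change 1.201 ± 0.15 (SE), edgeR adjusted p = 4.51e-05). Pbk was at 6.77, 8.52, 14.5, 6.73 and 9.30 CPM in thymic WT mice 1 to 5 and at 2.59, 10.3, 3.399, 10.3 and 2.93 CPM in thymic CD25 KO mice 1 to 5. In the spleen, Pbk was at 0.725, 1.19, 0.637 and 1.17 CPM in WT mice 1 to 4 and at 1.58, 2.24, 2.55 and 3.01 CPM in CD25 KO mice 1 to 4. Pbk (ENSMUSG00000022033.9, chr14:65805837-65817822), a mitotic kinase, had the largest splenic fold change of all members from a low level (log2 fold change 1.31 ± 0.25 (SE), edgeR adjusted p = 0.00197). Ccnb1, Cdk1 and Plk1 were called higher as well, at 1.02, 0.83 and 0.58, whereas Aurka and Melk, at 0.30 and 0.41, were not. Nek2, measured in the thymus alone, was at 1.901, 3.21, 4.69, 1.83 and 2.19 CPM in WT mice 1 to 5 and at 0.598, 3.42, 1.13, 3.31 and 0.427 CPM in CD25 KO mice 1 to 5.

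The chromosomal passenger complex corrects wrong attachments of chromosomes to the spindle, and all 4 of its genes, Aurkb, Incenp, Birc5 and Cdca8, rose in the spleen with a median of 0.86. Their thymic median was -0.77. Incenp was at 44.2, 56.3, 80.2, 41.2 and 50.96 CPM in thymic WT mice 1 to 5 and at 25.9, 57.6, 26.5, 54.97 and 18.4 CPM in thymic CD25 KO mice 1 to 5. In the spleen, Incenp was at 28.6, 31.6, 29.6 and 32.7 CPM in WT mice 1 to 4 and at 35.1, 36.5, 39.3 and 37.7 CPM in CD25 KO mice 1 to 4. Incenp, the scaffold of the complex, had the smallest splenic change of the 4, with no overlap (log2 fold change 0.27 ± 0.06 (SE), edgeR adjusted p = 0.00821). Its call was lost in 7 of 8 fits that left out 1 splenic mouse. Cdca8 was at 17.2, 21.8, 32.5, 13.5 and 21.8 CPM in thymic WT mice 1 to 5 and at 4.88, 24.02, 6.798, 21.8 and 4.64 CPM in thymic CD25 KO mice 1 to 5. In the spleen, Cdca8 was at 3.74, 4.33, 3.78 and 3.52 CPM in WT mice 1 to 4 and at 6.44, 6.97, 7.501 and 8.52 CPM in CD25 KO mice 1 to 4. Cdca8, which encodes borealin, rose too (log2 fold change 0.92 ± 0.13 (SE), edgeR adjusted p = 0.000125), and so did the kinase gene Aurkb (0.87) and the survivin gene Birc5 (0.84).

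Of 7 genes of the centromere and outer kinetochore, 5 rose in the spleen, with a median of 0.68, and the thymic median was -0.38. Cenpa was at 72.4, 76.5, 93.4, 68.8 and 78.8 CPM in thymic WT mice 1 to 5 and at 69.1, 92.7, 74.3, 94.8 and 62.3 CPM in thymic CD25 KO mice 1 to 5. In the spleen, Cenpa was at 32.4, 38.4, 30.5 and 33.4 CPM in WT mice 1 to 4 and at 43.9, 41.97, 48.8 and 46.4 CPM in CD25 KO mice 1 to 4. Cenpa (ENSMUSG00000029177.9, chr5:30666777-30674830), the histone H3 variant that marks centromeres, had thymic groups that overlapped, with CD25 KO mouse 5 alone below every WT mouse. It rose in the spleen without overlap (log2 fold change 0.41 ± 0.07 (SE), edgeR adjusted p = 0.00122). Cenpe was at 35.97, 25.8, 62.5, 27.4 and 34.7 CPM in thymic WT mice 1 to 5 and at 13.7, 65.5, 13.6, 49.5 and 14.1 CPM in thymic CD25 KO mice 1 to 5. In the spleen, Cenpe was at 9.35, 10.6, 9.85 and 11.3 CPM in WT mice 1 to 4 and at 13.4, 14.2, 18.8 and 20.3 CPM in CD25 KO mice 1 to 4. Cenpe, the kinesin that carries chromosomes to the middle of the spindle, rose in the spleen (log2 fold change 0.68 ± 0.12 (SE), edgeR adjusted p = 0.00119).

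The Ndc80 complex, made of the products of Ndc80, Nuf2, Spc24 and Spc25, grips the microtubules. Ndc80 was at 19.6, 18.2, 28.2, 16.1 and 19.03 CPM in thymic WT mice 1 to 5 and at 14.3, 30.7, 12.1, 26.2 and 13.6 CPM in thymic CD25 KO mice 1 to 5. In the spleen, Ndc80 was at 6.68, 7.54, 8.15 and 7.54 CPM in WT mice 1 to 4 and at 8.36, 9.75, 10.7 and 10.5 CPM in CD25 KO mice 1 to 4. Ndc80 had splenic groups that did not overlap but was not called (log2 fold change 0.38 ± 0.11 (SE), edgeR adjusted p = 0.0224). Spc24 was at 8.19, 10.5, 16.5, 7.097 and 10.4 CPM in thymic WT mice 1 to 5 and at 2.14, 11.6, 2.48, 11.03 and 2.24 CPM in thymic CD25 KO mice 1 to 5. In the spleen, Spc24 was at 1.14, 1.51, 1.49 and 1.95 CPM in WT mice 1 to 4 and at 2.34, 2.74, 3.15 and 2.82 CPM in CD25 KO mice 1 to 4. Spc24 rose in the spleen (log2 fold change 0.84 ± 0.19 (SE), edgeR adjusted p = 0.00615), with the call lost in 6 of 8 fits without 1 splenic mouse. Nuf2 rose too (1.11), Spc25 did not pass the test (0.64), and Cenpf, a large kinetochore protein, rose (0.77) with overlapping groups.

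Of the 4 spindle checkpoint genes, Bub1b, Mad2l1 and Ttk rose in the spleen and Bub1 was not called, with a median of 0.74, and the thymic median was -0.40. Bub1b was at 33.8, 50.1, 74.9, 29.8 and 42.9 CPM in thymic WT mice 1 to 5 and at 14.8, 52.4, 16.7, 47.9 and 10.2 CPM in thymic CD25 KO mice 1 to 5. In the spleen, Bub1b was at 7.86, 8.04, 7.18 and 8.24 CPM in WT mice 1 to 4 and at 10.9, 12.9, 12.1 and 14.5 CPM in CD25 KO mice 1 to 4. Bub1b encodes BubR1, part of the complex that holds back Cdc20, and its splenic groups did not overlap (log2 fold change 0.67 ± 0.10 (SE), edgeR adjusted p = 0.000288). Mad2l1 was at 26.9, 31.9, 41.6, 25.05 and 32.9 CPM in thymic WT mice 1 to 5 and at 22.6, 42.4, 25.6, 37.8 and 20.9 CPM in thymic CD25 KO mice 1 to 5. In the spleen, Mad2l1 was at 14.3, 18.03, 15.8 and 17.5 CPM in WT mice 1 to 4 and at 22.8, 23.6, 21.8 and 24.1 CPM in CD25 KO mice 1 to 4. Mad2l1, the other inhibitor of Cdc20, rose without overlap (log2 fold change 0.48 ± 0.08 (SE), edgeR adjusted p = 0.000652). The checkpoint kinases Ttk and Bub1 were at 1.04 and 0.80 in the spleen.

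Of the 4 genes grouped here under anaphase onset and mitotic exit, Cdc20, Espl1 and Cdca3 rose in the spleen and Ube2c was not called. Their median was 0.78, against -0.70 in the thymus. Cdc20 was at 14.96, 21.3, 32.5, 13.1 and 17.1 CPM in thymic WT mice 1 to 5 and at 7.73, 22.4, 7.39, 17.4 and 5.17 CPM in thymic CD25 KO mice 1 to 5. In the spleen, Cdc20 was at 4.31, 4.62, 5.77 and 5.001 CPM in WT mice 1 to 4 and at 7.38, 6.83, 8.21 and 8.59 CPM in CD25 KO mice 1 to 4. Cdc20, which activates the anaphase-promoting complex, was higher in every splenic CD25 KO mouse (log2 fold change 0.64 ± 0.13 (SE), edgeR adjusted p = 0.00199). Espl1 was at 20.9, 25.7, 33.7, 17.4 and 22.2 CPM in thymic WT mice 1 to 5 and at 6.38, 30.6, 8.25, 28.5 and 2.93 CPM in thymic CD25 KO mice 1 to 5. In the spleen, Espl1 was at 2.14, 3.14, 3.099 and 3.05 CPM in WT mice 1 to 4 and at 4.67, 4.77, 6.001 and 6.89 CPM in CD25 KO mice 1 to 4. Espl1 encodes separase, the protease that cleaves cohesin, and rose without overlap (log2 fold change 0.96 ± 0.17 (SE), edgeR adjusted p = 0.000962). Ube2c, the ubiquitin-conjugating enzyme of the complex, was at 0.70, and 22.8% of its exonic length overlaps Tnnc2 on the other strand.

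Of 5 measured mitotic kinesins, which move cargo or chromosomes along microtubules, Kif23 (0.75) and Kif4 (1.03) rose in the spleen, and the median was 0.75. The thymic median was -0.56 over 6 members. Of the exonic length of Kif4, 15.1% overlaps Pdzd11 on the other strand. Kif22 was at 25.2, 35.97, 44.9, 27.02 and 29.4 CPM in thymic WT mice 1 to 5 and at 16.7, 33.6, 18.7, 32.5 and 14.4 CPM in thymic CD25 KO mice 1 to 5. In the spleen, Kif22 was at 15.1, 16.3, 14.5 and 14.5 CPM in WT mice 1 to 4 and at 15.6, 16.4, 22.2 and 17.98 CPM in CD25 KO mice 1 to 4. Kif22, a chromosome-arm motor, overlapped between splenic genotypes and was not called (log2 fold change 0.24 ± 0.10 (SE), edgeR adjusted p = 0.128). Kif20a was at 26.1, 31.04, 40.8, 22.6 and 29.1 CPM in thymic WT mice 1 to 5 and at 15.7, 33.8, 18.9, 35.0 and 12.3 CPM in thymic CD25 KO mice 1 to 5. In the spleen, Kif20a was at 12.6, 15.3, 12.1 and 11.8 CPM in WT mice 1 to 4 and at 12.96, 11.6, 13.5 and 13.9 CPM in CD25 KO mice 1 to 4. Kif20a, a kinesin of the central spindle, was the one member with a splenic fold change below 0, and its groups overlapped (log2 fold change -0.01 ± 0.10 (SE), edgeR adjusted p = 0.967). Of its exonic length, 29.3% overlaps Cdc23 on the other strand. Since the strand setting of the counting is not stated, how reads from this overlap were counted is not known. Kif2c, which takes microtubules apart at centromeres, was just above the threshold (log2 fold change 0.84 ± 0.21 (SE), edgeR adjusted p = 0.0101). In the thymus, Kif11 was at 28.7, 32.1, 54.3, 21.8 and 29.6 CPM in WT mice 1 to 5 and at 9.02, 48.3, 9.93, 41.7 and 6.35 CPM in CD25 KO mice 1 to 5, with mice 1, 3 and 5 again below every WT mouse.

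Of 6 spindle-associated genes, 5 rose in the spleen, with a median of 0.81, against -0.54 in the thymus. Tpx2 was at 32.1, 42.8, 71.1, 26.7 and 35.02 CPM in thymic WT mice 1 to 5 and at 10.9, 46.4, 11.1, 40.9 and 7.31 CPM in thymic CD25 KO mice 1 to 5. In the spleen, Tpx2 was at 3.81, 5.77, 5.01 and 6.33 CPM in WT mice 1 to 4 and at 7.53, 10.8, 11.6 and 11.6 CPM in CD25 KO mice 1 to 4. Tpx2, which activates Aurora A on the spindle, had splenic groups that did not overlap (log2 fold change 0.98 ± 0.16 (SE), edgeR adjusted p = 0.000521). Hmmr was at 15.8, 15.8, 28.8, 11.7 and 13.6 CPM in thymic WT mice 1 to 5 and at 5.88, 25.8, 6.37, 19.8 and 5.44 CPM in thymic CD25 KO mice 1 to 5. In the spleen, Hmmr was at 1.68, 2.52, 2.46 and 2.54 CPM in WT mice 1 to 4 and at 4.37, 5.92, 5.85 and 6.22 CPM in CD25 KO mice 1 to 4. Hmmr (ENSMUSG00000020330.16, chr11:40701395-40733422), a spindle and hyaluronan-binding protein, had the largest splenic change after Pbk (log2 fold change 1.27 ± 0.17 (SE), edgeR adjusted p = 8.22e-05).

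Prc1 was at 32.2, 39.6, 66.04, 27.8 and 36.6 CPM in thymic WT mice 1 to 5 and at 17.1, 45.1, 21.4, 46.4 and 13.4 CPM in thymic CD25 KO mice 1 to 5. In the spleen, Prc1 was at 14.04, 13.99, 10.996 and 13.3 CPM in WT mice 1 to 4 and at 16.2, 14.2, 17.7 and 18.9 CPM in CD25 KO mice 1 to 4. Prc1, which bundles the microtubules of the central spindle, was not called (log2 fold change 0.34 ± 0.10 (SE), edgeR adjusted p = 0.0351), and 11.1% of its exonic length overlaps Rccd1 on the other strand. Dlgap5 was at 21.4, 25.3, 41.3, 21.1 and 24.7 CPM in thymic WT mice 1 to 5 and at 11.6, 32.5, 11.5, 27.3 and 12.5 CPM in thymic CD25 KO mice 1 to 5. In the spleen, Dlgap5 was at 10.2, 11.1, 9.298 and 10.9 CPM in WT mice 1 to 4 and at 12.7, 12.96, 14.9 and 14.3 CPM in CD25 KO mice 1 to 4. Dlgap5, which stabilises kinetochore fibres, rose slightly (log2 fold change 0.39 ± 0.09 (SE), edgeR adjusted p = 0.0088), and its call was lost in 7 of 8 fits without 1 splenic mouse. Nusap1 and Ckap2l rose at 0.79 and 0.83.

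Of the 3 cytokinesis genes, Racgap1 and Ect2 rose in the spleen and Anln (0.34) was not called, with a median of 0.66, against -0.49 in the thymus. Racgap1 was at 40.2, 47.3, 71.1, 35.7 and 45.4 CPM in thymic WT mice 1 to 5 and at 11.6, 58.9, 12.8, 46.8 and 9.92 CPM in thymic CD25 KO mice 1 to 5. In the spleen, Racgap1 was at 20.3, 21.8, 22.5 and 21.4 CPM in WT mice 1 to 4 and at 29.4, 36.1, 34.2 and 37.2 CPM in CD25 KO mice 1 to 4. Racgap1, part of the centralspindlin complex, had splenic groups that did not overlap (log2 fold change 0.66 ± 0.07 (SE), edgeR adjusted p = 1.77e-05). Ect2 was at 18.5, 18.5, 34.7, 16.2 and 18.7 CPM in thymic WT mice 1 to 5 and at 10.7, 32.1, 9.33, 23.9 and 9.92 CPM in thymic CD25 KO mice 1 to 5. In the spleen, Ect2 was at 4.501, 6.71, 4.76 and 4.26 CPM in WT mice 1 to 4 and at 6.37, 7.37, 10.4 and 8.91 CPM in CD25 KO mice 1 to 4. Ect2, which activates RhoA at the cleavage furrow, had overlapping splenic groups because WT mouse 2 was above CD25 KO mouse 1 (log2 fold change 0.69 ± 0.17 (SE), edgeR adjusted p = 0.00995). The call of Ect2 was lost in 6 of 8 fits without 1 splenic mouse.

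The 2 genes of chromosome structure, Mki67 and Top2a, both rose in the spleen, with a median of 0.92, and their thymic median was -0.49. Mki67 was at 272, 195, 457, 227 and 245 CPM in thymic WT mice 1 to 5 and at 105, 521, 103, 349.6 and 70.1 CPM in thymic CD25 KO mice 1 to 5. In the spleen, Mki67 was at 84.9, 93.7, 91.9 and 95.2 CPM in WT mice 1 to 4 and at 157, 169, 216 and 203 CPM in CD25 KO mice 1 to 4. Mki67 (ENSMUSG00000031004.8, chr7:135689784-135716361) encodes Ki-67, which coats mitotic chromosomes and is a common marker of dividing cells. Its RNA was 2.02-fold higher in splenic CD25 KO Tregs (log2 fold change 1.01 ± 0.08 (SE), edgeR adjusted p = 9.17e-07). The paper also reports this rise in RNA. It reports that Ki-67 protein, measured by flow cytometry, did not differ between splenic CD25 KO and WT Tregs. The RNA values alone do not show that more cells divided. Top2a was at 235, 310.1, 528, 187 and 286 CPM in thymic WT mice 1 to 5 and at 83.5, 381, 82.3, 334 and 63.5 CPM in thymic CD25 KO mice 1 to 5. In the spleen, Top2a was at 46.2, 50.2, 49.4 and 51.1 CPM in WT mice 1 to 4 and at 72.1, 84.5, 97.4 and 101 CPM in CD25 KO mice 1 to 4. Top2a (ENSMUSG00000020914.17, chr11:98992943-99024189), the topoisomerase that untangles sister chromatids, was 1.78-fold higher there (log2 fold change 0.84 ± 0.08 (SE), edgeR adjusted p = 5.48e-06). Per kilobase of exonic length, the highest mean levels in thymic WT mice were 34.3 CPM per kb for Top2a, 27.8 for Mki67 and 13.5 for Ccnb2, and in splenic WT mice 9.09 for Mki67, 7.07 for Incenp and 5.75 for Cenpa.

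Fold changes were also set beside the promoter letters. In the spleen, 28 members with a CHR match had a median log2 fold change of 0.76 and a range of 0.24 to 1.27, and 7 members without one had 0.79 and 0.41 to 1.11. In the thymus, the medians were -0.60 over 29 members with a match and -0.63 over 8 without. These are descriptions with no test. Mki67, Top2a, Bub1b and Ect2, whose promoters are printed above, rose in the spleen, and Kif22 was not called.

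Whether the CD25 effect differed between tissues was tested in 1 fit of all 18 samples as the splenic minus the thymic log2 fold change. The difference was above 0 for all 44 members (49.4% of all genes), with a median of 1.45, but edgeR called 0 of them, where 4.5% of all 18686 genes tested were called higher and 2.49% lower. At an unadjusted p below 0.05 the count was 36, against 17.4% of all genes, and at an adjusted p below 0.05 it was 6, against 9.82%. The largest differences were 1.95 ± 0.52 (SE) for Ccnb2 (edgeR adjusted p = 0.0143) and 1.95 ± 0.57 for Pbk (edgeR adjusted p = 0.0237). Ccnb2 was called by DESeq2 and by edgeR without a filter on low counts. With all mice, 1305 genes were called in either direction. Without thymic CD25 KO mouse 2, 1489 genes were called, 7 of them members (Ccna2, Ccnb2, Cdc20, Cdca8, Hmmr, Pbk and Racgap1). Without mouse 4, 1445 genes were called, with Ccnb2 and Pbk among them. Without both mice, 2307 genes were called, among them 44 of 44 members, with a median of 2.64. Leaving out both was added after the data had been seen. It removes the CD25 KO mice with the highest level of every member, so it is no independent test of a tissue difference.

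Between WT mice, 43 of 44 members were lower in splenic than in thymic Tregs by edgeR, where 19.5% of all genes tested were called lower and 21% higher. For all 44 members every splenic WT mouse was below every thymic WT mouse, which held for 23.1% of all genes. The median log2 fold change was -2.51. The largest were -3.26 ± 0.43 (SE) for Pbk, -3.21 ± 0.53 for Bub1 and -3.05 ± 0.49 for Espl1. The smallest were -0.81 ± 0.25 for Incenp and -0.93 ± 0.18 for Mad2l1, and Racgap1 (log2 fold change -1.14 ± 0.39 (SE), edgeR adjusted p = 0.018) was not called. Incenp or Mki67 also lost the call in some fits without 1 mouse. For 41 of 44 members the group means ran from thymic WT, the highest, through thymic CD25 KO and splenic CD25 KO to splenic WT. Mean log2 CPM over the members was 5.04 and 4.87 in thymic CD25 KO mice 2 and 4 but 2.84 to 3.24 in mice 1, 3 and 5. It was 2.95 to 3.35 in splenic CD25 KO mice, below the 4.19 to 5.38 of thymic WT mice. For this mean, the place of thymic above splenic CD25 KO thus came from mice 2 and 4. Since tissue, age, mouse model, tamoxifen and the date in the column headers changed together, the tissue itself cannot be told apart from the others.

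Related genes outside the 46 were described from lists of their pathways, whose splenic counts stand beside the 5.9% of all genes called higher there and the 3.55% called lower. In the spleen, 12 of 28 other spindle and cytokinesis genes rose, led by Depdc1a (log2 fold change 1.74), Cep55 (1.12) and Kif18b (1.10), with a median of 0.37 over the list. Of 8 genes for condensins, the rings that compact chromosomes, 4 rose, among them Ncapg (0.95), Ncapg2 (0.72) and Ncaph (0.72), with a median of 0.36. Of 14 other mitotic entry regulators, 5 rose, among them Cdc25c (1.17), the phosphatase that activates Cdk1, Stmn1 (0.76) and Cks1b (0.70). Cdc25c was low too, at means of 0.454 CPM in splenic WT and 1.04 CPM in splenic CD25 KO mice. Of 29 other centromere and kinetochore genes, Knl1 (0.99) and Zwint (0.36) rose, a share near that of all genes, with a median of 0.24.

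Cohesin, the anaphase-promoting complex, transcription regulators and DNA replication followed. Of 14 genes for cohesin and the control of separase, Esco2 (0.90) and Rad21 (0.31) rose in the spleen, with a median of 0.15. None of 17 genes for the anaphase-promoting complex rose and Anapc5 fell by 0.24, with a median of 0.02. Among 23 regulators of mitotic transcription, the repressors E2f8 (1.31) and E2f7 (0.72) and the pocket-protein gene Rbl1 (0.28) rose, with a median of 0.05. Of 40 genes for DNA replication, 9 rose, among them Rrm2 (1.00), Mcm10 (0.78) and Uhrf1 (0.57), with a median of 0.20. In none of these lists but that of the anaphase-promoting complex did a gene fall.

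In the thymus, Smc4 (0.69), a condensin subunit, Rb1 (0.77), which restrains E2F, and Cenpq (0.39) rose in CD25 KO Tregs. No other gene of these 8 lists was called, where 3.17% of all genes tested were called higher and 2.99% lower. The sign of these calls was opposite to that of nearly all of the 46 members, but so few calls are not read as a result about the lists. The 40 genes for DNA replication had a thymic median of -0.31 with 0 called. Their mean log2 CPM was 4.66 to 4.98 in thymic WT mice, 4.98 and 4.91 in CD25 KO mice 2 and 4, and 3.90, 3.95 and 3.81 in CD25 KO mice 1, 3 and 5. DNA replication genes thus divided the thymic CD25 KO mice as the mitosis genes did.

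Markers of other cells and Treg states were listed beside these values, and their part in the mitosis levels was not tested. Summed markers of immature thymocytes (10 genes, of which Rag1 is listed at 0 in the spleen) were at 214 to 382 CPM in thymic WT mice. They were at 273 to 424 CPM in thymic CD25 KO mice, with mouse 5 highest. Themis made up much of these sums, at 109 to 156 CPM in thymic WT and 150 to 252 CPM in thymic CD25 KO mice. Of 9 markers tested in the thymus, 6 had fold changes below 0 and 3 above, with a median of -0.25, and 0 were called. In the spleen the sums were 134 to 136 CPM in WT and 149 to 183 CPM in CD25 KO mice, and Themis alone rose (0.34). The Treg genes Foxp3 and Lrrc32 were detected in every mouse and fell in both tissues, Foxp3 by 0.74 (thymus) and 0.55 (spleen), Lrrc32 by 1.28 (thymus) and 1.33 (spleen). Of the 8 Treg markers, 4 fell and 0 rose in the thymus, with Tnfrsf18 among those that fell, and in the spleen 3 rose (Ikzf2, Cd4 and Cd3e) and 3 fell (Foxp3, Lrrc32 and Ikzf4).

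Effector Treg markers rose in the spleen and fell in the thymus. In the spleen, 7 of 8 rose, among them Gzmb (3.41), Tigit (1.28) and Prdm1 (1.00), and their sum was 549 to 657 CPM in WT and 870 to 1017 CPM in CD25 KO mice. In the thymus, 6 of 8 fell, among them Klrg1, Tigit (-2.58) and Itgae (-1.38), and their sum was 287 to 334 CPM in WT mice, 266 and 264 CPM in CD25 KO mice 2 and 4, and 160 to 190 CPM in CD25 KO mice 1, 3 and 5. Of 7 central Treg markers, 4 fell in the spleen, among them Bcl2 and Ly6c1, and Tcf7 rose (0.24). None was called in the thymus.

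Markers of B cells (6 genes), myeloid cells (7), erythroid cells (6) and NK cells (5) were low. Their sums were 20.8 to 22.3 and 20.3 to 24.7 CPM for B cells, 11.7 to 18.6 and 16.9 to 23.4 CPM for myeloid cells, 5.27 to 7.13 and 4.98 to 7.01 CPM for erythroid cells, and 4.93 to 7.90 and 10.9 to 16.4 CPM for NK cells in splenic WT and CD25 KO mice. Pax5 (1.04), Lyz2 (1.03) and Klrb1c (1.90) rose in the spleen, where Ncr1 and Klra8 are listed at 0. In thymic WT and CD25 KO mice, the sums were 11.5 to 14.4 and 10.7 to 15.0 CPM for B cells, 5.61 to 24.8 and 4.70 to 15.3 CPM for myeloid cells, 13.9 to 35.2 and 8.59 to 44.1 CPM for erythroid cells, and 3.43 to 4.48 and 3.25 to 8.58 CPM for NK cells, and none of these markers was called.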

How the data were processed

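RNA from sorted Tregs of 18 mice (5 thymic WT, 5 thymic CD25 KO, 4 splenic WT, 4 splenic CD25 KO) was sequenced. The authors deposited raw counts of reads per gene, made per the submitters' processing notes with STAR 2.5.0b and featureCounts 1.5.0 on GRCm38 (mm10). The strand setting of the counting was not given in the sources used here, so members that overlap a gene on the other strand are uncertain. Library totals were 17239774 to 32639570 counts, and limits from 3 counts cover counting error only, since reads carried no molecular identifiers. Counts were tested with edgeR 4.0.16 (quasi-likelihood, TMM) in R 4.3.3, fitted within each tissue for CD25 KO against WT and on all 18 samples between tissues, with a Benjamini-Hochberg adjusted p below 0.01 over all genes tested as the threshold. Log2 CPM used a prior count of 2. Symbols and positions came from the GENCODE annotation of GRCm38, which gave a symbol to 50376 of 50600 IDs. Replicates are separate mice.

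The 46 members and all lists were chosen with earlier results of these data known. Values by mouse are given for the members with the highest mean log2 CPM in each of 9 roles (3 in the first, 2 in the others), the 2 with the largest and the 2 with the smallest fold change in each tissue, and those with the 3 largest tissue differences if called. Up to 3 called genes of each other list are named per direction and tissue. Other genes named were chosen after their values were seen. The mean over members uses 44 of 46, because Kif11 and Nek2 are listed at 0 in every splenic library. That choice was made after the data had been seen. Alternatives were other scalings, DESeq2 1.42.0, other filters on low counts, removal of a GC trend, other thresholds, a fit of all samples, a replicate block and leaving out each mouse.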

Additional observations from a re-analysis of the deposited data

Results flagged for a closer look

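In 6 of 108 sets of mice examined, the highest or lowest mouse lay far from the others of its group by Dixon's ratio, and chance alone gives about 1 in 20. Splenic WT mouse 1 was low for Espl1 (log2 CPM 1.15, next 1.65) and for Hmmr (0.82, next 1.35). Thymic WT mouse 3 was high for Dlgap5 (5.37, next 4.67) and for Ect2 (5.12, next 4.23), and this mouse was the highest thymic WT mouse for all 46 members. Splenic CD25 KO mouse 1 was low for Tpx2 (2.93, next 3.45). Splenic WT mouse 2 was low for Il2ra (481 CPM, next 527).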

How the results depend on the processing

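In the thymus, 0 members were called under every alternative fixed at the outset, and 42 of 46 without CD25 KO mice 2 and 4. In the spleen, the 32 calls ranged from 28 to 39 under other scalings, DESeq2, other filters, removal of a GC trend and a threshold of 0.05, were 16 with a minimum fold of 1.2 and 0 with all 18 samples in 1 fit, and ran from 23 to 34 without 1 mouse. For the tissue difference, 0 calls became 1 with DESeq2, 1 without a filter on low counts, 6 at 0.05 and 44 without thymic CD25 KO mice 2 and 4, and ran from 0 to 7 without 1 mouse (7 without CD25 KO mouse 2, 2 without mouse 4). The WT comparison of tissues gave 41 to 44 calls. Leaving out CD25 KO mice 2 and 4 together was added after the data had been seen. The cause of these changes in count was not tested. The difference in mean log2 CPM ran from -1.12 to -0.57 in the thymus and from 0.66 to 0.80 in the spleen without 1 mouse.

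Fold changes near 0 turned in sign. Without 1 mouse, thymic Cenpa ran from -0.060 (CD25 KO mouse 4) to 0.095, with -0.0041 and -0.021 without WT mice 1 and 4 and -0.042 without CD25 KO mouse 2, and was -0.18 without CD25 KO mice 2 and 4. Thymic Cenpe ran from -0.70 to 0.022 (WT mouse 3). Thymic Mad2l1 ran from -0.23 upwards and was 0.040 without WT mouse 3, 0.0090 without CD25 KO mouse 1 and 0.031 without mouse 5. Thymic Ndc80 ran from -0.28 upwards and was 0.094 without WT mouse 3, and 0.039, 0.071 and 0.054 without CD25 KO mice 1, 3 and 5. Splenic Kif20a ran from -0.052 upwards and was 0.083 without WT mouse 2 and 0.044 without CD25 KO mouse 2.

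Thymic titles share replicate numbers, but same-numbered mice correlated at 0.144, 0.034, -0.068, -0.238 and -0.048, so the numbers were not taken as pairs. With the replicate block, 0 members were called, with a median log2 fold change of -0.83, and 209 genes in place of 1047. The block was not run for the tissue difference, since splenic titles share no numbers.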
